A study of Danio rerio with 26 samples.

Results

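Out of 57918 transcripts quantified in zebrafish brain, 4 were silent in every control library and clearly present in every library of alcohol-exposed fish. They were chosen by their deposited abundance in TPM, a length-corrected share of all transcripts in a library scaled to a fixed total: 10 TPM or more in each of the 4 alcohol-exposed brain libraries and 0.5 TPM or less in each of the 5 control brain libraries. These transcripts are ENSDART00000138408.1, ENSDART00000143953.2, ENSDART00000148406.1 and ENSDART00000163803.1, as the files identify them. The files give transcript identifiers only and do not pair them with genes, so no gene name, position or function is given for any of them. All 4 were listed at exactly 0 TPM in all 5 control brains, and none shared its 14 brain values with another transcript.

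The fish were Danio rerio of the short-fin AB strain, with males and females in separate tanks. The 3 exposure groups were alcohol-exposed (0.5% ethanol for 9 weeks, renewed daily), withdrawal (exposure ended, with the time off ethanol not given in the sources used here) and control (given the same daily tank change, with no ethanol). Brain libraries numbered 2 of alcohol-exposed males, 2 of alcohol-exposed females, 3 of withdrawal males, 2 of withdrawal females, 2 of control males and 3 of control females, and liver libraries numbered 2 in each of the 6 groups. The control and alcohol-exposed tanks held 30 fish each, and fish of these groups were also bred from the 5th week of exposure onward. Tissue was pooled within groups, so each library is a pool. Nothing states that replicate libraries came from different fish, so the p-values below reflect variation among libraries, and that variation may be technical only.

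Zebrafish take up ethanol from the water, and in the vertebrate brain ethanol acts on inhibitory GABA receptors and excitatory glutamate receptors, among other targets. Long exposure is followed by adaptation of these systems, and stopping it produces withdrawal. A gene can give rise to several transcripts through different start sites, splicing and ends, and quantification software divides the short reads they share among them. A transcript can therefore appear because its gene was switched on or because the use of that gene's transcripts shifted. These cases cannot be told apart from transcript identifiers alone. In whole tissue, more cells that make a transcript and more of it per cell cannot be told apart either.

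The 4 transcripts stood at the edge of the distribution (plot of alcohol against control level). At most 0.5 TPM in every control brain was seen for 21972 transcripts, of which 10550 were listed at 0 in all 5. At least 10 TPM in every alcohol brain was seen for 15491, whose highest control value had a median of 16.8 TPM. Of the 21972 silent transcripts, 21877 reached 10 TPM in no alcohol brain, 63 in 1, 21 in 2, 7 in 3 and 4 in all 4. Just inside the alcohol limit lay ENSDART00000138408.1, with a lowest alcohol value of 12.1 TPM, and just outside it ENSDART00000166943.1, with 9.73 TPM and 0 in all controls. On the control side, the nearest transcript outside the limit was ENSDART00000063775.4, at 19.2 to 39.5 TPM in alcohol brains and 0.24 to 0.61 TPM in control brains. The mirror pattern, at most 0.5 TPM in all alcohol brains and at least 10 TPM in all control brains, was met by 10 transcripts.

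**Figure D1:**
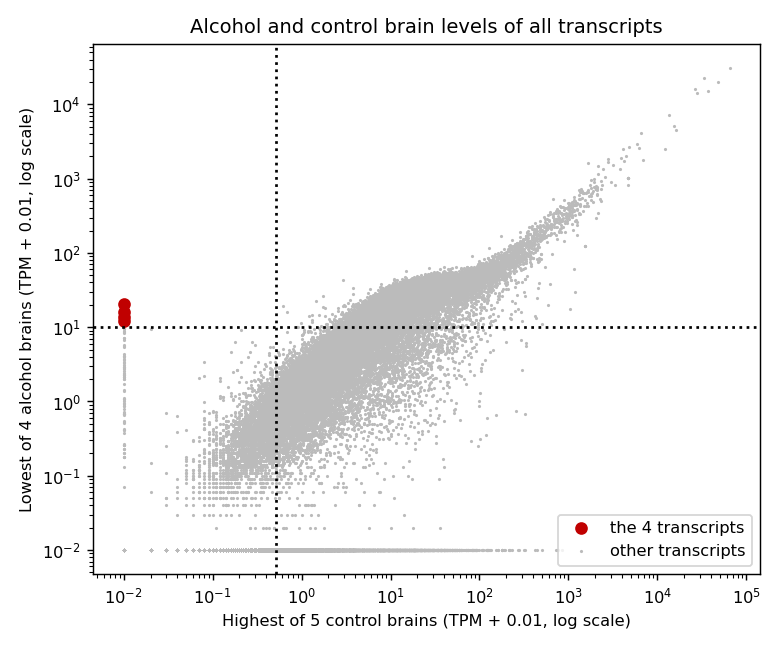
Each point is 1 of 57918 transcripts, with its highest TPM over the 5 control brains (x) against its lowest TPM over the 4 alcohol brains (y), both plus 0.01 on log axes, and dotted lines mark the limits of 0.5 and 10 TPM. The 4 transcripts (red) lie at 0 TPM in controls, above other transcripts of the same column that end just under the line, while most transcripts run along a band that rises to the right.

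The alcohol and control values below chose the transcripts and are given as a description, with no test. ENSDART00000163803.1 had the highest floor: it measured 20.7 and 27.7 TPM in alcohol-exposed males and 26.2 and 22.6 TPM in alcohol-exposed females, and was listed at 0 in every control brain. Its male and female values overlapped. ENSDART00000148406.1 measured 27.3 and 29.4 TPM in alcohol-exposed males and 23.6 and 15.8 TPM in alcohol-exposed females, again against a listed 0 in all controls. Both male values were above both female values.

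ENSDART00000143953.2 was ordered the other way, at 25.5 and 23.6 TPM in alcohol-exposed females and 13.8 and 16.8 TPM in alcohol-exposed males, with 0 listed in the 5 controls. ENSDART00000138408.1 was the lowest of the 4, at 17.1 and 13.9 TPM in alcohol-exposed females and 12.2 and 12.1 TPM in alcohol-exposed males, and was also listed at 0 in all controls. In both of these transcripts the female values lay above the male values with no overlap. The transcripts thus had no common order of the sexes under alcohol, with 2 higher in females, 1 higher in males and 1 overlapping. Together they made up 74.0 to 92.3 TPM of an alcohol brain library.

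**Figure D2:**
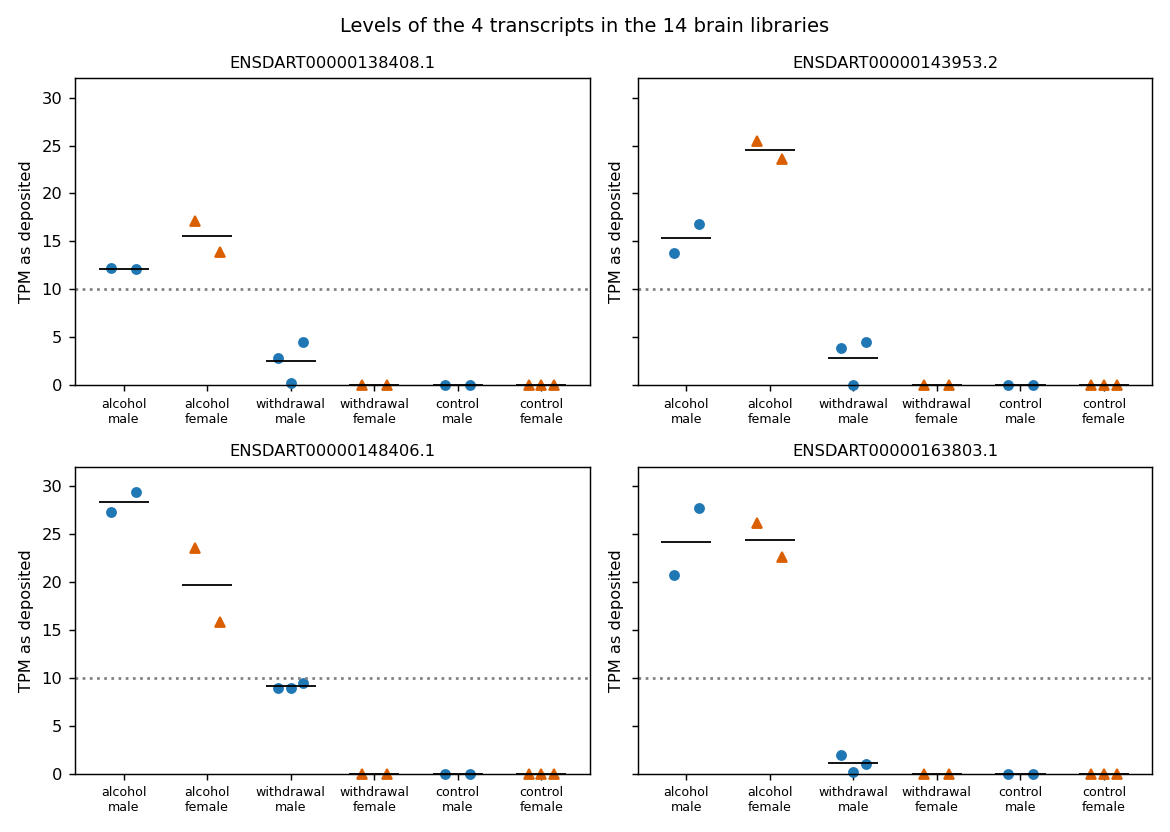
Deposited TPM of the 4 transcripts (panels) in each of the 14 brain libraries (points: males as circles, females as triangles) by exposure and sex, with group means as lines and the 10 TPM limit dotted. Alcohol brains lie above the limit, withdrawal males lie between 0 and 9.44 TPM, and withdrawal females and controls lie at 0.

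The alcohol brain libraries differed from the others as a whole, which bears on every value above. In alcohol brains 17643 to 18230 transcripts reached 10 TPM, against 10959 to 11512 in withdrawal males, 8944 to 9221 in withdrawal females and 8600 to 11057 in controls. The number of transcripts above 0 was alike, at 39261 to 39746 in alcohol and 38667 to 40121 in control brains. Rescaling each library by its typical ratio to the others divided TPM by 2.04 to 2.18 in alcohol brains, 0.892 to 0.946 in withdrawal males, 0.638 to 0.678 in withdrawal females and 0.600 to 0.896 in controls. On that rescaled scale only ENSDART00000163803.1 kept 10 TPM or more in each alcohol brain, at 10.1 to 12.9 TPM, and the lowest alcohol values of the other 3 lay between 5.65 and 7.75 TPM. The listed 0 in controls is the same on either scale. The labels give no batch, and no alcohol brain library belongs to any other group, so an effect of exposure and one of preparing those libraries cannot be told apart.

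After withdrawal, all 4 transcripts were listed at 0 in both female brains, as were 24.4% of all transcripts and 56.9% of those silent in controls. The share was 10.7% among the 365 transcripts silent in controls with at least 1 TPM in every alcohol brain. In male brains the 4 transcripts lay below the alcohol males, and above 0 in every library except 1, withdrawal male 2 for ENSDART00000143953.2. No withdrawal library entered the rule, so it did not set these levels directly. The thresholds were chosen with earlier results of these data known. A listed 0 in both withdrawal females was common among transcripts silent in controls (56.9%), but less so among the 365 (10.7%). The share among transcripts listed at 0 in all controls was not counted. The test across all 6 brain groups does draw on the choice, because its estimate of the spread includes the control and alcohol libraries that chose the transcripts. The limma fit of the 5 withdrawal libraries alone takes its means and spread from none of them and is given beside it. Its filter and its rescaling still used all brain libraries, including those that chose the transcripts. ENSDART00000148406.1 measured 8.92, 9.00 and 9.44 TPM in the withdrawal males and was listed at 0 in both withdrawal females. Its male values were close to each other and apart from the females. It was higher in males in 3 of 3 libraries (limma adjusted p = 0.000382 in the fit of the withdrawal libraries alone and 3.67e-08 across all brain groups, Benjamini-Hochberg over 36682 transcripts). The difference was 3.44 in rescaled log2(TPM + 1) in both fits. Its SE was 0.12 in the fit of the withdrawal libraries alone and 0.14 across all brain groups. With 1 group at 0 the size of that difference is set by the 1 TPM added before taking the logarithm, so no fold is given. In deposited TPM, all withdrawal males lay above both withdrawal females for 33% of all 57918 transcripts, and the reverse held for 12.4%. Among the 365 transcripts named above these shares were 43.8% and 9.32%. The typical transcript had a higher deposited TPM in withdrawal males (divisors 0.892 to 0.946) than in withdrawal females (0.638 to 0.678). The shares were not counted in rescaled TPM, where the median male minus female log2 difference over all tested transcripts was -0.00329.

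The other 3 transcripts varied more among the withdrawal males. ENSDART00000138408.1 measured 2.77, 0.18 and 4.45 TPM in withdrawal males 1, 2 and 3, against a listed 0 in both withdrawal females. ENSDART00000143953.2 measured 3.88, 0 and 4.51 TPM in the same males, against a listed 0 in both females. ENSDART00000163803.1 measured 2.00, 0.21 and 1.00 TPM in the males, against a listed 0 in both females. In these 3 transcripts withdrawal male 2 was the lowest of the males, whereas in ENSDART00000148406.1 it stood between the other two.

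In the fit of the withdrawal libraries alone, limma called 1 of the 4 transcripts higher in males, ENSDART00000148406.1, where 17.7% of all 36682 tested transcripts were called higher and 19.9% lower. The other 3 had adjusted p-values of 0.124, 0.146 and 0.199. Across all 6 brain groups limma called all 4 higher in males, where 20.1% of tested transcripts were called higher and 22.2% lower, with a spread that includes controls the rule held near 0. In that same fit, among the 15491 transcripts with at least 10 TPM in all alcohol brains, 24.4% were called higher in males and 33.1% lower. Among the 2570 tested transcripts that were silent in controls, the shares were 11.3% and 11.6%. The adjusted p across all groups was 0.0213 for ENSDART00000163803.1 (difference 1.00 ± 0.30 SE in rescaled log2(TPM + 1), higher in 3 of 3 male libraries). It was 0.0221 for ENSDART00000138408.1 (limma, 1.59 ± 0.48, 3 of 3 libraries) and 0.0417 for ENSDART00000143953.2 (limma, 1.63 ± 0.58, 2 of 3 libraries).

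These 3 calls also depended on single libraries. Across all brain groups the number called was 2 without withdrawal male 1, and 1 without withdrawal male 3, withdrawal female 1 or withdrawal female 2. ENSDART00000148406.1 was called in each of its 12 alternative limma fits, with adjusted p from 3.89e-08 to 0.000382. Only the fit of the withdrawal libraries alone, at 0.000382, takes its means and spread from no library that chose it. The other fits are a description. No single library was left out of the fit of the withdrawal libraries alone. The sex difference in the withdrawal minus control change is the same quantity, 3.44 for ENSDART00000148406.1, because the rule fixed the controls near 0, and is no separate support (limma interaction, adjusted p = 1.37e-06, 25.4% of tested transcripts called in that direction). For the other 3 the limma interaction gave adjusted p-values of 0.0709, 0.0731 and 0.117, and without withdrawal male 2 all 4 were called.

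How far the male level had come down from the alcohol level depended on the scale. In deposited TPM the mean of the withdrawal males was 32.2% of the mean of the alcohol males for ENSDART00000148406.1, 20.3% for ENSDART00000138408.1, 18.2% for ENSDART00000143953.2 and 4.42% for ENSDART00000163803.1. In rescaled TPM the same ratios were 72.9%, 45.1%, 40.6% and 9.92%. On both scales ENSDART00000148406.1 had the highest ratio and ENSDART00000163803.1 the lowest, also when any 1 withdrawal male was left out. In deposited TPM the ratio ranged from 31.6% to 32.5% for ENSDART00000148406.1 and from 2.5% (without withdrawal male 1) to 6.20% for ENSDART00000163803.1 when single males were left out, an alternative chosen after seeing the data. For ENSDART00000138408.1 it was 12.1% without withdrawal male 3 and 29.7% without withdrawal male 2, and for ENSDART00000143953.2 it was 12.7% and 27.4%, so the order of these 2 turned without male 3. In rescaled TPM the lowest and highest were 72.1% and 74.2% for ENSDART00000148406.1, 27.2% and 65.9% for ENSDART00000138408.1, 28.4% and 61.0% for ENSDART00000143953.2, and 5.61% and 13.9% for ENSDART00000163803.1. On both scales every withdrawal male value lay below every alcohol male value. The ratios use alcohol values that the rule selected to be high, so they carry no test.

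**Figure D3:**
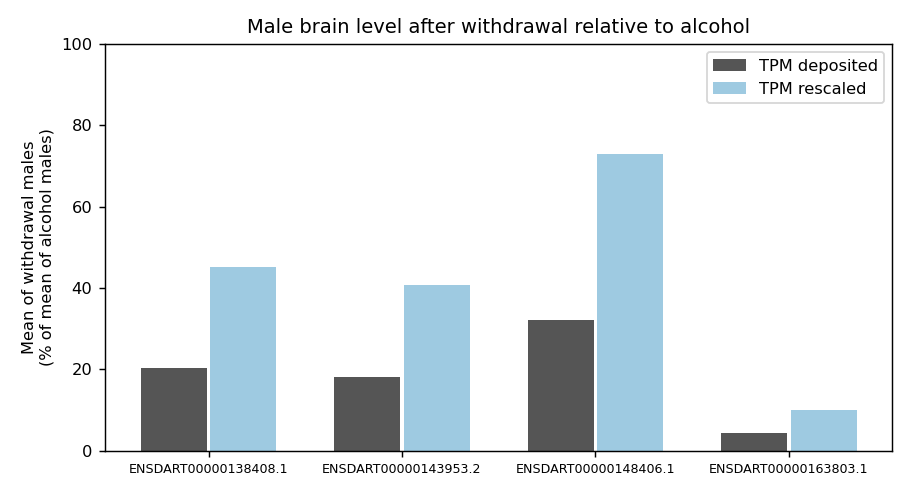
Mean level of the 3 withdrawal male brains as a percent of the mean of the 2 alcohol male brains for each of the 4 transcripts, in deposited TPM (dark bars) and rescaled TPM (light bars). The percent is 72.9% in rescaled and 32.2% in deposited TPM for ENSDART00000148406.1, and under 10% on both scales for ENSDART00000163803.1.

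Relaxing the alcohol limit to 5 TPM gave 22 transcripts, the 4 and a further 18 whose lowest alcohol value was 5.34 to 9.73 TPM. In male withdrawal brains 15 to 18 of the 22 were above 0, with library medians of 0.545 to 2.09 TPM, whereas in female withdrawal brains 4 and 9 were above 0, with medians of 0 TPM. Listed at 0 in both withdrawal females were 54.5% of the 22, beside 56.9% of all transcripts silent in controls. Listed at 0 in all withdrawal males were 13.6% of the 22, beside 52.6% of those silent in controls. Among the 365 transcripts silent in controls with at least 1 TPM in every alcohol brain, which include the 22, these shares were 10.7% and 3.56%. The male shares require a listed 0 in 3 libraries and the female shares in 2, so the sexes are not compared on equal terms. Of the 18 added transcripts, limma called 6 higher in withdrawal males, 2 lower, and 10 neither way in the fit of all brain groups. The shares called higher and lower were 20.1% and 22.2% of all tested transcripts, and 11.3% and 11.6% of tested transcripts silent in controls. The spread in that fit includes the control and alcohol libraries that chose the 18, so these counts are a description. No fit of the withdrawal libraries alone is given for the 18. The 6 averaged 3.86 to 10.6 TPM in withdrawal males, and no withdrawal female exceeded 0.2 TPM for any of them. The 2 lower ones averaged 0.513 and 1.08 TPM in withdrawal males and 4.46 and 1.41 TPM in withdrawal females.

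The median male minus female difference over the 22 was 0.71 in rescaled log2(TPM + 1), against -0.00329 over all tested transcripts. No median was taken over the 365 transcripts named above, which are more like the 22. In deposited TPM, all withdrawal males lay above both withdrawal females for 40.9% of the 22 and 43.8% of the 365. The reverse held for 9.09% and 9.32%. Presence in all 3 withdrawal males with a listed 0 in both withdrawal females was found for 7 of the 22, 3 of them among the 4, and the reverse for 0. Over all 57918 transcripts these patterns held for 891 (1.54%) and 1085 (1.87%). Among the 365 transcripts silent in controls with at least 1 TPM in every alcohol brain they held for 21 (5.75%) and 2 (0.548%). A total of 3 of the 22, none of them among the 4, were listed at 0 in every withdrawal brain of both sexes. The withdrawal male libraries also held more transcripts at 10 TPM or more than the withdrawal female libraries, by the counts given above, and the part of this in the sex difference was not tested.

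**Figure D4:**
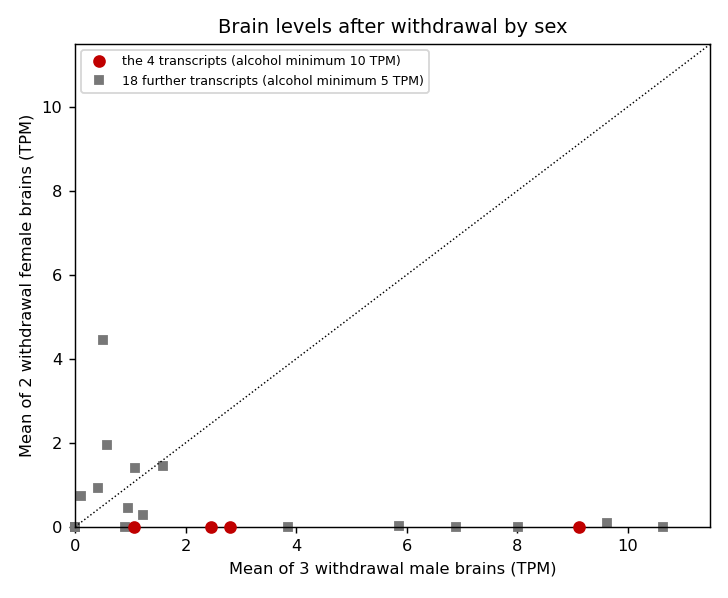
Mean TPM of the 3 withdrawal male brains (x) against that of the 2 withdrawal female brains (y) for the 4 transcripts (red circles) and the 18 further ones with at least 5 TPM in every alcohol brain (grey squares), with equality dotted. The 4 lie on the x axis at a listed 0 in females, and several grey squares lie beside it at up to 10.6 TPM in males.

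Few of the 21972 transcripts silent in controls reached 10 TPM after withdrawal, as under alcohol. In deposited TPM, 7 reached it in all 3 withdrawal males, 5 in both withdrawal females and 0 in all 5 withdrawal libraries. None of the 4 transcripts reached it in any, and the count for all 4 alcohol brains was 4. These counts require different numbers of libraries, and the typical transcript had a higher TPM in the alcohol libraries. The 10 mirror transcripts, which were at or near 0 under alcohol, were above 0 in every withdrawal male brain for 10 of 10 and in both withdrawal female brains for 9 of 10. At least 10 TPM in every library was reached by 6 of them in withdrawal males and 7 in withdrawal females. The mirror set was chosen at 10 TPM or more in every control brain. The share of all 7534 transcripts at that level that were present after withdrawal was not counted. In withdrawal female brains the 4 transcripts were listed at 0 and most of the mirror set was present. The 4 transcripts thus stood at the listed 0 of the controls. Of the 10 mirror transcripts, 7 were at 10 TPM or more in both withdrawal females, which is the limit that chose them in controls. Their levels were not compared with their control values. No contrast between the sets is drawn.

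In the liver the 4 transcripts were nearly absent, and no liver library was used to choose them. ENSDART00000163803.1 was listed at 0 in all 12 liver libraries. ENSDART00000138408.1 was listed at 0 in 11 and at 0.19 TPM in withdrawal female 2. ENSDART00000148406.1 was at 0.2 and 0.1 TPM in the withdrawal females, at 0.06 TPM in control female 2 and listed at 0 in the other 9. None of these 3 passed the filter of 1 TPM in 2 libraries, so they were not tested there.

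ENSDART00000143953.2 was the only transcript of the 4 to reach 1 TPM in any liver library. It measured 0.87 and 1.38 TPM in withdrawal females and 1.71 and 1.23 TPM in withdrawal males. In alcohol livers it was listed at 0 in both females and stood at 0.49 and 0.88 TPM in the males. It was listed at 0 in all 4 control livers. Withdrawal livers therefore lay above control livers in 4 of 4 libraries, and alcohol livers in 2 of 4. The highest liver value was below every alcohol brain value of that transcript, on deposited TPM, which is relative to each tissue's own total.

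Limma called ENSDART00000143953.2 higher in withdrawal than in control livers over both sexes (difference 1.09 ± 0.13 SE in rescaled log2(TPM + 1), adjusted p = 0.000149, 32.8% of 21158 transcripts called higher). It passed the liver filter only through its withdrawal libraries, where it is high, so that call describes the values above and supports nothing further. With no filter on low values the limma adjusted p was 0.000388, within a range of 3.76e-05 to 0.000887 over 15 alternatives. Between alcohol and control livers, 24.1% of tested transcripts were called higher. Of the 4, only ENSDART00000143953.2 was tested there, and limma did not call it (difference 0.32 ± 0.13 SE, adjusted p = 0.0673). That 1 transcript had an unadjusted p under 0.05, and its adjusted p ranged from 0.00705 to 0.164 over 15 alternatives.

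Between female and male livers over all exposures, limma called ENSDART00000143953.2 lower in females (difference -0.30 ± 0.10 SE, adjusted p = 0.0351, 25.9% of transcripts called lower). It reached the 1 TPM of the filter at 1.71 and 1.23 TPM in withdrawal males and 1.38 TPM in withdrawal female 2. Only the males were enough to pass that filter, so this call describes the values and supports nothing further. With no filter on low values it was lost (limma adjusted p = 0.058). The call ended without either control male, either control female, either alcohol female, alcohol male 2, withdrawal male 1 or withdrawal female 1, with adjusted p from 0.0595 to 0.0883. It held without alcohol male 1, withdrawal male 2 or withdrawal female 2. The female and male values overlapped in withdrawal livers, did not overlap in alcohol livers, and were all listed at 0 in control livers. Leaving out any 1 control or alcohol female liver, all listed at 0, left the difference at -0.30 with a larger SE.

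**Figure D5:**
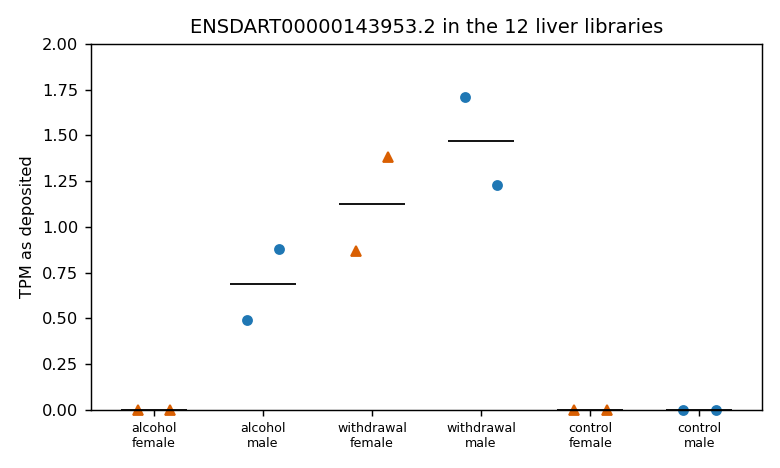
Deposited TPM of ENSDART00000143953.2 in the 12 liver libraries by exposure and sex (females as triangles, males as circles), with group means as lines. Withdrawal livers of both sexes lie between 0.87 and 1.71 TPM, alcohol males at 0.49 and 0.88 TPM, and alcohol females and all controls at 0.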

How the data were processed

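The authors deposited TPM per Ensembl transcript, 1 table for brain and 1 for liver, with each library summing to the same total. They used FastQC 0.11.7 for read quality, STAR 2.5.2 for alignment to danRer10 and RSEM 1.3.1 for quantification, per the submitters' processing notes, and EBSeq for differential expression, per the series design. Libraries were non-stranded, per the labels' protocols. TPM keeps no read number, so depth is unknown and no interval or detection limit is given. An exact 0 may reflect how reads were divided among similar transcripts, so it is called listed at 0.

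Members and thresholds were chosen with earlier results of these data known. For tests, each library was divided by its median-of-ratios size factor, taken over those tested transcripts that had no 0 in the tissue (27390 in brain, 14468 in liver), and log2(TPM + 1) of transcripts with 1 TPM or more in at least 2 libraries was fitted with limma 3.58.1 in R 4.3.3 (moderated variance with trend, a mean for each group of sex and exposure). A call is a Benjamini-Hochberg adjusted p under 0.05 over all tested transcripts of the tissue. The procedure was tested on simulated data, with changes added only to more abundant transcripts that otherwise had the same mean in every group. That simulation did not cover transcripts listed at 0 in whole groups, such as these 4, so it says nothing on their calls. Descriptions and plots were made with Python 3.11.15, pandas 2.3.3 and matplotlib 3.10.9. Transcripts to name were the 2 with the highest lowest alcohol value, the 2 with the largest called male-higher difference after withdrawal, the called liver ones, and those on either side of each limit, which together take in all 4. Lists of marker genes and pathways could not be used, since the identifiers are not paired with gene names here.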

Additional observations from a re-analysis of the deposited data

Results flagged for a closer look

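ENSDART00000148406.1 was picked out for a sex difference in its withdrawal minus control change in brain, which restates its male minus female difference after withdrawal and is no separate result. The change was larger in males than in females by 3.44 in rescaled log2(TPM + 1) (limma interaction, adjusted p = 1.37e-06), with 8.92 to 9.44 TPM in withdrawal males, a listed 0 in withdrawal females and a listed 0 in the controls of both sexes. The control values were fixed near 0 by the choice of the transcript, so the test draws on values that chose it. With 2 or 3 libraries in each group of sex and exposure, single libraries that stand apart could not be tested.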

How the results depend on the processing

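The number of transcripts that met the rule was 8 with a control limit of 1 TPM, 22 with an alcohol limit of 5 TPM, 1 with an alcohol limit of 20 TPM and 1 on rescaled TPM. It ranged from 4 to 10 when single libraries were left out, with 8 without alcohol male 1 and 10 without control female 2. The number called between withdrawal males and females in brain was 1 of 4 in the fit of the withdrawal libraries alone, and 1 to 4 without single libraries. The interaction called 3 with a pseudocount of 0.1 and 1 to 4 without single libraries. In liver, alcohol against control called 1 without rescaling, 1 with a pseudocount of 0.1 and 1 in the fit of alcohol and control libraries alone. Females against males called 0 after quantile normalisation, 0 with no filter and 0 with the near-identical pair of alcohol female livers averaged, and 0 to 1 without single libraries. Causes of these changes were not tested. No difference of the 4 reversed in any alternative run. A filter of 5 TPM left none of them to test in liver, no near-identical pair was found in brain, and the female against male liver comparison already used all groups.

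With the replicate number as a block, 3 of 4 were called between withdrawal males and females in brain (ENSDART00000143953.2, limma adjusted p = 0.0925 against 0.0417). The block changed no other call of the 4 transcripts. Same-numbered libraries did not deviate together, with r from -0.179 to 0.0638 over 31 brain pairs and from -0.0369 to 0.101 over 30 liver pairs. In groups of 2 the deviations from the mean mirror each other, so r between libraries of different number is no separate evidence on pairing.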
